A study of Mus musculus with 8 samples.

Results

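Cxcl10 and 6 other inflammatory chemokine genes, Cxcl9, Ccl2, Ccl3, Ccl4, Ccl5 and Ccl7, were examined in haematopoietic stem cells of mice with and without ADAR1. The members and the gene lists used below were chosen by name with earlier results of these data known. Counts of called genes among them are therefore not independent of that choice. Every probe set that the platform annotation assigns to 1 member symbol alone was taken. This gave 8 probe sets for 7 genes among 45037 probe sets tested and 18193 genes measured. RNA was hybridised to 8 Affymetrix arrays, each carrying the stem cells of a single mouse. The 3 groups were ADAR1 -/- mice (3 arrays), ADAR1 +/- mice (3 arrays) and WT control mice (2 arrays). All mice were C57/B6, and in all of them the cells came from fetal liver and were sorted as Lin-Sca+Kit+, that is without mature lineage markers and with the surface proteins Sca-1 and Kit. The sources used here do not give the part of Adar removed from the null allele, the age of the fetuses or the date of each hybridisation.

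Chemokines are small secreted proteins that draw leukocytes along a gradient by binding receptors of the G protein-coupled class. Cxcl9 and Cxcl10 bind Cxcr3, a receptor of activated T cells and natural killer cells, and are known as targets of interferon signalling; Ccl2 and Ccl7 draw monocytes through Ccr2, and Ccl3, Ccl4 and Ccl5 act on several leukocyte types. ADAR1 is an enzyme that edits adenosines of double-stranded RNA into inosines, and unedited double-stranded RNA can be bound by the cytosolic sensor MDA5, encoded by Ifih1, whose signal leads through interferon regulatory factors and NF-kappaB to interferon and chemokine genes.

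The promoters are shown because Cxcl10 and Cxcl9 lie near each other on chromosome 5, share a receptor and gave different readings on these arrays. RefSeq windows from 250 bases before to 50 bases after the start were matched for 3 of the 7 members, Cxcl9, Cxcl10 and Ccl3, in build GRCm38.p6. The 250 bases before the start are printed 5′ to 3′ for Cxcl10 (chr5:92348890-92349139, minus strand) and Cxcl9 (chr5:92328080-92328329, minus strand), with matches to any of 3 searched motifs in capitals.
Cxcl10: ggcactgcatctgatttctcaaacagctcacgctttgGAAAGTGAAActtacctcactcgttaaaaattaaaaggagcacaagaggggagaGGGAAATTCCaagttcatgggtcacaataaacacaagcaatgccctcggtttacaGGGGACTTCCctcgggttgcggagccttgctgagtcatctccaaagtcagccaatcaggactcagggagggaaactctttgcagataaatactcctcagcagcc
Cxcl9: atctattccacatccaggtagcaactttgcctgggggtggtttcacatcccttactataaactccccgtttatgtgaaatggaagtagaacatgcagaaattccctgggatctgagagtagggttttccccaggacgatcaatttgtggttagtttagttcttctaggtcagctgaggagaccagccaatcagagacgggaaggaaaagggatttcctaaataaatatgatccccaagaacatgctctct

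The motifs were searched on both strands of the 300-base windows and their letters were chosen with these sequences in view. The interferon-stimulated response element, searched as GAAA, any 2 bases and GAAA, occurs in 3.44% of 32851 RefSeq windows of that length. The NF-kappaB motif, searched as GGG, any 3 bases and TTCC, occurs in 5.56% of them, and the STAT-binding gamma-activated site, searched as TTC, any 3 bases and GAA, in 8.30%. The Cxcl10 window holds 1 match to the first, GAAAGTGAAA, 213 to 204 bases before the start, and 2 matches to the second, GGGAAATTCC at 159 to 150 bases and GGGGACTTCC at 104 to 95 bases, and none to the third. The Cxcl9 and Ccl3 windows hold none of these 3 letter patterns. The printed Cxcl9 bases do hold gggatttcc, which has GGG and TTCC with 2 bases between them rather than 3. The contrast between the windows therefore depends on the letters chosen and is no separate result. A match describes the letters only, and its absence says only that those letters are not in the window. No match of the 3 patterns overlaps another in the Cxcl10 window.

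The arrays were compared first for their general quality. Background, taken on each array as the highest reading of 27 control probe sets for Bacillus transcripts, was 7.40 to 9.29 intensity units in ADAR1 -/- arrays, 6.20 to 6.98 in ADAR1 +/- arrays and 7.09 to 8.15 in WT arrays. Between 40.0% and 46.4% of probe sets lay above it in ADAR1 -/- arrays, against 51.2% to 61.2% in ADAR1 +/- arrays and 45.6% to 51.5% in WT arrays. The ratio of the 3′ to the 5′ Gapdh control, a sign of RNA integrity and amplification, was 7.45 to 8.73 in ADAR1 -/- arrays, against 5.78, 4.78 and 9.0 in ADAR1 +/- arrays and 4.39 and 4.32 in WT arrays. It was thus higher on all 3 ADAR1 -/- arrays than on 4 of the 5 control arrays, and its part in the results was not tested. Xist and a Y-linked transcript gave a male pattern on ADAR1 -/- array 1 and on ADAR1 +/- arrays 1 and 3, and a female pattern on the other 5. Adar itself read 59.7, 144 and 176 in ADAR1 -/- cells, against 13.1, 16.1 and 9.89 in ADAR1 +/- cells and 7.66 and 17.6 in WT cells, which does not check the labels because the deleted part is unknown here. The number of arrays, above all the 2 WT arrays, limits the precision of every comparison.

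Cxcl10, which encodes the chemokine also called IP-10, was the member that stood apart. Its single probe set read 773, 320 and 88.8 intensity units on the 3 ADAR1 -/- arrays. It read 5.11, 4.99 and 4.77 on the ADAR1 +/- arrays and 5.52 and 5.57 on the WT arrays. All 3 ADAR1 -/- readings were above their array's background and all 5 control readings were at or below it, so the groups do not overlap and the control level is known only as an upper bound.

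Cxcl10 rose in ADAR1 -/- cells against the 5 control arrays as 1 group, by 5.75 ± 0.59 log2 units (SE, 3 and 5 arrays; 95% interval 4.39 to 7.12). The limma test of this difference gave a Benjamini-Hochberg adjusted p of 0.00576. With control readings held at background the mean rise was at least 40.0-fold. This fold and those below bound the control floor only and not the spread among mice. Against ADAR1 +/- cells alone Cxcl10 rose by 5.82 ± 0.71 log2 units (95% interval 4.14 to 7.50, limma adjusted p = 0.0290, 3 arrays each), at least 42.3-fold. Against the 2 WT arrays the difference was 5.66 ± 0.79 log2 units (95% interval 3.78 to 7.54), at least 36.8-fold. It did not pass the threshold of 0.05 (limma, adjusted p = 0.0573; unadjusted p = 0.000215). These comparisons share the ADAR1 -/- arrays and part of the controls, so they are not independent of each other. Over all probe sets, 0.329% were called higher in ADAR1 -/- cells against both controls together, 0.262% against ADAR1 +/- and 0.22% against WT.

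The call against both controls together held without each of the 8 arrays in turn, with adjusted p from 0.000359 to 0.0268. The size of the difference rested on which ADAR1 -/- arrays were kept: it was 5.02 log2 units without array 1, the brightest, and 6.58 without array 3, the dimmest. The call against ADAR1 +/- was lost without any of the 3 ADAR1 +/- arrays (adjusted p = 0.131 to 0.135) and without either WT array (0.0599), which enter that fit through the shared estimate of the spread. The difference against WT passed without ADAR1 -/- array 1 (0.0480) or array 3 (0.00588). With sex as a covariate, which was added after the data were seen, the difference against both controls was 5.80 log2 units (adjusted p = 0.0113).

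The spread of Cxcl10 among the ADAR1 -/- mice was wide. The mean was 8.13 ± 1.57 log2 units (SD, n = 3), and among the 148 probe sets that rose against both controls together none had a larger SD over the ADAR1 -/- arrays, their median SD being 0.62. A test that weighs a difference against its spread favours probe sets of small spread, so these 148 are no sample of all probe sets. The order of the ADAR1 -/- arrays for Cxcl10, array 1 above array 2 above array 3, was shared by 23 of the 101 genes that rose (22.8%), against 16.1% of all genes measured. Of those 101 genes, 32 were highest on array 1, 53 on array 2 and 16 on array 3. Array 1 had the highest background of the 8 arrays and was the only ADAR1 -/- array with a male pattern. With sex as a covariate the SE of the difference from both controls was 0.57 log2 units, against 0.59 without it, and the part of background in the spread was not tested.

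**Figure D1:**
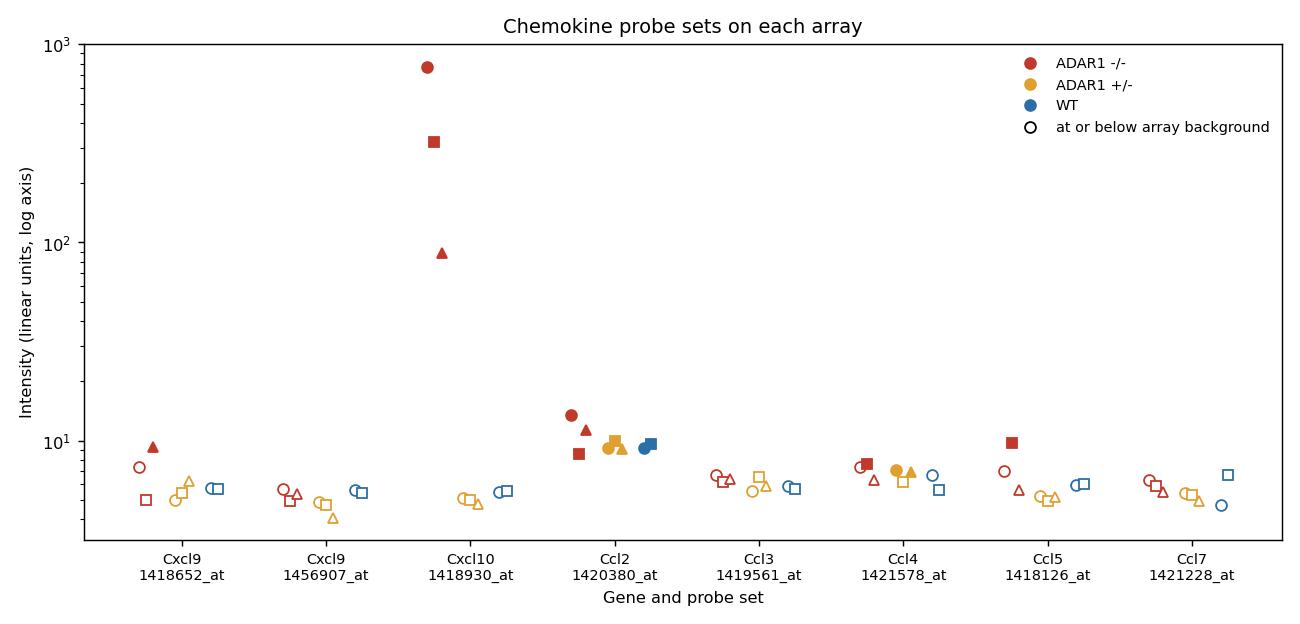
Intensity of the 8 chemokine probe sets (linear units on a log axis) on each of the 8 arrays, with ADAR1 -/- left of ADAR1 +/- and WT for each probe set, a different marker shape for each replicate and open markers for readings at or below the background of their array. Cxcl10 lies between 88.8 and 773 on the 3 ADAR1 -/- arrays and between 4.77 and 5.57 on the 5 control arrays, while the other 7 probe sets lie between 4.07 and 13.5 on all arrays.

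Cxcl9, the closest relative of Cxcl10 in this set, did not show such a difference. The brighter of its probe sets read 7.33, 5.03 and 9.28 in ADAR1 -/- cells, 5.0, 5.43 and 6.24 in ADAR1 +/- cells and 5.76 and 5.67 in WT cells. Only the reading of 9.28, on ADAR1 -/- array 3, was above background, and this was the array on which Cxcl10 was lowest among the ADAR1 -/- arrays. The difference from both controls together was 0.32 ± 0.20 log2 units (SE; 95% interval -0.14 to 0.78; limma, adjusted p = 0.567). The dimmer Cxcl9 probe set lay between 4.96 and 5.66 in ADAR1 -/- cells and between 4.07 and 5.65 in the controls, and no array was above background. With readings at background a low level of Cxcl9 in either group is not measured, and the interval bounds the change of the signal rather than of the transcript.

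The CC chemokines were at or near background as well. Ccl2, a monocyte attractant also called MCP-1, was the one of them above background on all 8 arrays: it read 13.5, 8.52 and 11.3 in ADAR1 -/- cells, 9.19, 9.98 and 9.07 in ADAR1 +/- cells and 9.18 and 9.58 in WT cells. The ADAR1 -/- readings lie on both sides of the controls, so the groups overlap. Its difference from both controls together was 0.22 ± 0.15 log2 units (SE; 95% interval -0.14 to 0.58; limma, adjusted p = 0.614), so the interval reaches at most 1.49-fold. Its neighbour in function Ccl7 lay between 5.53 and 6.33 in ADAR1 -/- cells and between 4.74 and 6.71 in the controls, with no array above background.

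Ccl5, also called RANTES, was the member nearest to a difference after Cxcl10. It read 7.0, 9.72 and 5.61 in ADAR1 -/- cells, 5.27, 4.94 and 5.18 in ADAR1 +/- cells and 5.94 and 6.05 in WT cells. The ADAR1 -/- and ADAR1 +/- readings do not overlap, but only ADAR1 -/- array 2 was above background, and array 3 lay below both WT arrays. Against ADAR1 +/- cells the difference was 0.50 ± 0.21 log2 units (SE; unadjusted p = 0.0470; limma, adjusted p = 0.434), and against both controls together it was 0.41 ± 0.18 (adjusted p = 0.455). Ccl5 was highest on array 2, Cxcl9 on array 3 and Cxcl10 on array 1, so the 3 chemokines differed in which ADAR1 -/- mouse read highest.

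Ccl3 and Ccl4 encode macrophage inflammatory proteins, and neither passed in any comparison. Ccl3 read 6.19 to 6.67 in ADAR1 -/- cells and 5.58 to 6.56 in the controls, with no array above background. Ccl4 read 6.36 to 7.64 in ADAR1 -/- cells and 5.66 to 7.06 in the controls, and it was above background on ADAR1 -/- array 2 and ADAR1 +/- arrays 1 and 3. Their differences from both controls together were 0.11 ± 0.10 and 0.13 ± 0.12 log2 units (SE; limma, adjusted p = 0.686 and 0.706).

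Over the 8 probe sets, then, 1 passed against both controls together, 1 against ADAR1 +/- and 0 against WT, where 1 had an unadjusted p under 0.05, as did 7.63% of all probe sets. Of the 7 probe sets other than that of Cxcl10, 0 passed limma in any comparison, and 1, that of Ccl5 against ADAR1 +/-, had an unadjusted p under 0.05, as did 11.3% of all probe sets. In these 7 probe sets 13 of 56 readings were above background, 6 of 21 in ADAR1 -/- cells and 7 of 35 in the controls. Their differences from both controls together ran from 0.11 to 0.41 log2 units with a median of 0.13, beside a median of 0.04 over all probe sets. Cxcl10 was the 1 member of 8 probe sets whose ADAR1 -/- readings all lay above all 5 controls, which 3.89% of all probe sets do.

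**Figure D2:**
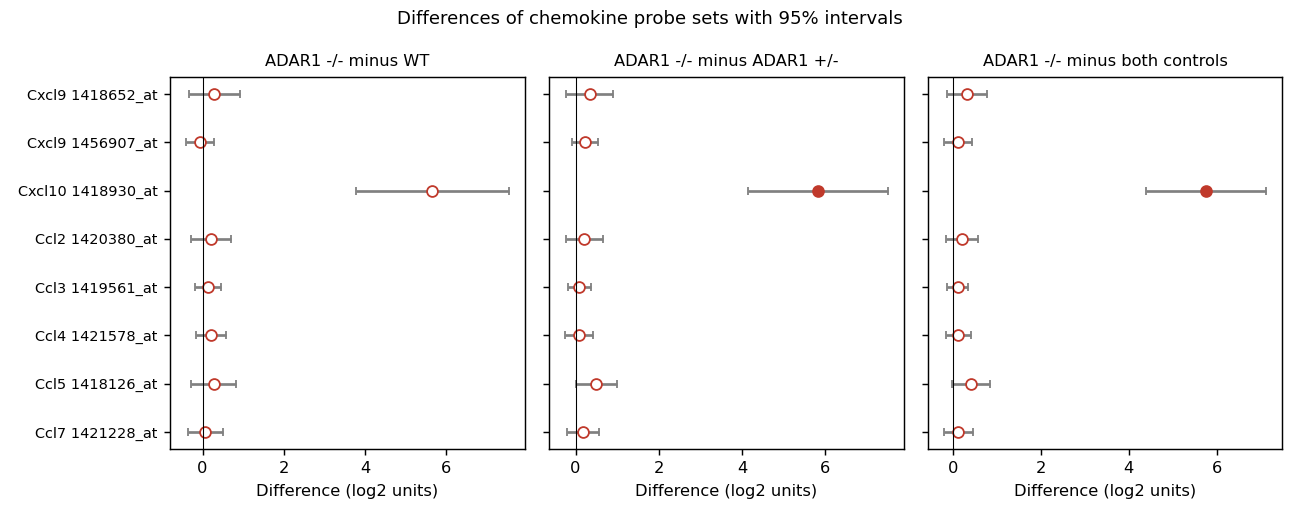
Difference of each chemokine probe set in log2 units (horizontal axis) with its 95% interval from limma, for ADAR1 -/- minus WT, minus ADAR1 +/- and minus both controls together from left to right; filled points passed an adjusted p of 0.05. Cxcl10 lies at 5.66, 5.82 and 5.75 log2 units with intervals several log2 units wide, and no other probe set lies beyond 0.50.

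Loss of a single Adar copy was not accompanied by a detected change in any member. ADAR1 +/- minus WT was -0.16 ± 0.79 log2 units for Cxcl10 (SE; limma, adjusted p = 0.987), with both groups at background. For the other 7 probe sets it ran from -0.28 to 0.12 log2 units, with adjusted p from 0.891 to 0.999. Of the 8 probe sets, 0 had an unadjusted p under 0.05, where 5.37% of all probe sets did. Over all probe sets 0.0% were called higher and 0.00222%, 1 probe set, lower. The wide interval for Cxcl10, -2.04 to 1.72, comes from the ADAR1 -/- arrays, which set the shared estimate of the spread.

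The other chemokine ligands were read from a list of 30 genes, of which 27 had a probe set of their own; Ccl19, Ccl21a and Ccl26 were not measured. None of the 27 passed limma in any comparison with ADAR1 -/- cells, where 0.934% of genes did against both controls together; before adjustment 1 had a p under 0.05 as higher and 2 as lower, where 13.5% of all genes had one in either direction. The median difference was 0.09 log2 units, beside 0.03 over all genes. The 4 with the largest differences were Ccl25, which draws T cell precursors to the thymus, Cxcl16, a membrane-bound ligand of Cxcr6, the monocyte attractant Ccl9, and Ccl17, a ligand of Ccr4.

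Ccl25 was at background on all ADAR1 -/- arrays, at 6.90, 5.33 and 5.28, against 17.1, 8.29 and 42.5 in ADAR1 +/- cells and 9.98 and 70.8 in WT cells. It was lower by 1.87 ± 0.71 log2 units, which did not pass (SE; limma, adjusted p = 0.388), and the controls themselves spread over that range. Cxcl16 by its brightest probe set read 31.1, 6.81 and 9.30 in ADAR1 -/- cells and 5.02 to 7.99 in the controls (0.95 ± 0.46 log2 units; adjusted p = 0.475), and like Cxcl10 it was highest on ADAR1 -/- array 1. The other Cxcl16 probe set was at background on every array, at 6.23 to 6.92 in ADAR1 -/- cells and 4.62 to 7.08 in the controls. Ccl9 and Ccl17 differed by -0.80 and -0.67 log2 units (adjusted p = 0.318 and 0.444). The platelet chemokine Pf4, known from megakaryocytes and stem cells, was bright throughout, at 2964 to 4280 in ADAR1 -/- cells and 3611 to 4043 in the controls. Cxcl11, the third ligand of Cxcr3, is annotated by RefSeq as a transcribed pseudogene, and both its probe sets were at background on all 8 arrays.

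The receptors of these ligands were read in the same cells. Of 21 measured receptor genes 0 passed limma in any comparison with ADAR1 -/- cells; 0 had an unadjusted p under 0.05 against both controls together or against WT, and 2 had one against ADAR1 +/-, as did 13.0% of all genes. Cxcr3, the receptor of Cxcl10, was at background on every array, with 4.96 to 7.01 in ADAR1 -/- cells and 5.17 to 6.39 in the controls. The largest difference was that of Ccrl2, a chemokine-binding receptor that does not signal like the others, which read 10.3, 74.5 and 20.2 in ADAR1 -/- cells and 8.05 to 13.0 in the controls (1.28 ± 0.57 log2 units, SE; adjusted p = 0.448). Cxcr5 and Ccr8, above background on 1 and 3 arrays, differed by 0.52 and 0.40 log2 units and Cxcr4, the homing receptor of stem cells, by -0.39, and their adjusted p were 0.482, 0.482 and 0.505.

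The sensors and signalling proteins known to act upstream of chemokine genes held 4 genes that rose, among 26 measured (Chuk was not measured). These 4 passed against both controls together and against ADAR1 +/-, and 3 of them, without Ddx58, passed against WT. At gene level 0.934%, 0.77% and 0.517% of all genes passed in these comparisons. The list's median difference from both controls was 0.24 log2 units, and 22 of the 26 did not pass.

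Ifih1, the MDA5 sensor, read 433, 1039 and 456 in ADAR1 -/- cells, 8.72, 6.18 and 17.5 in ADAR1 +/- cells and 23.0 and 19.8 in WT cells, a rise of 5.46 ± 0.51 log2 units (SE; limma, adjusted p = 0.00363). Ddx58, the RNA sensor RIG-I, read 214, 514 and 141 in ADAR1 -/- cells against 9.31 to 22.1 in the controls, a rise of 4.20 ± 0.46 (adjusted p = 0.00767; 0.0731 against WT alone). Dhx58, the third helicase of this family and known as LGP2, rose by 4.41 ± 0.28 log2 units (adjusted p = 0.000548), at least 16.1-fold. Eif2ak2, the double-stranded RNA-dependent kinase PKR, rose by 2.75 ± 0.26 log2 units (adjusted p = 0.00424). All 4 kept their call against both controls together without each array in turn. The brightest probe set of the endosomal RNA receptor Tlr3 read 235, 456 and 17.1 in ADAR1 -/- cells and 6.53 to 12.7 in the controls. Its difference of 3.84 ± 0.95 log2 units did not pass (adjusted p = 0.175), and like Cxcl10 it was lowest on array 3 among the ADAR1 -/- arrays. The other Tlr3 probe set was at background on every array, at 5.80 to 6.50 in ADAR1 -/- cells and 5.17 to 6.44 in the controls.

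Of 19 measured transcription factors of the list, 5 rose against both controls together and against ADAR1 +/-, and 2 of them, Irf7 and Stat2, against WT. Irf7, an amplifier of interferon production, read 249, 175 and 632 in ADAR1 -/- cells, 6.39, 6.04 and 7.18 in ADAR1 +/- cells and 7.11 and 6.51 in WT cells, a rise of 5.51 ± 0.37 log2 units (SE; limma, adjusted p = 0.000619). It was highest on array 3, on which Cxcl10 was lowest, so the order of the ADAR1 -/- mice was not the same for these genes. Stat2 and Irf9, subunits of the factor that binds interferon-stimulated response elements, rose by 3.94 ± 0.20 and 2.91 ± 0.32 log2 units (adjusted p = 0.000166 and 0.00849). Irf1, an interferon-induced activator, read 316, 427 and 197 in ADAR1 -/- cells and 16.6 to 48.7 in the controls, a rise of 3.58 ± 0.38 (adjusted p = 0.00728; 0.0652 against WT alone). Irf9 had an adjusted p of 0.0748 against WT alone.

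Spi1, the myeloid factor PU.1, rose by 1.60 ± 0.25 log2 units (SE; limma, adjusted p = 0.0474), and the call was lost without 7 of the 8 arrays, being kept only without ADAR1 +/- array 3 (lowest and highest adjusted p over all alternatives 0.0200 and 0.152). The other 4 factors kept their call against both controls together without each array.

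By their brightest probe sets, Irf3 and the NF-kappaB genes examined did not pass as higher. Irf3, which is switched on by phosphorylation, had its brightest probe set at 60.3, 36.9 and 34.5 in ADAR1 -/- cells and 86.1 to 179 in the controls (-1.42 ± 0.29 log2 units; limma, adjusted p = 0.105). A dimmer Irf3 probe set, chosen after its values were seen, read 23.5, 21.5 and 23.2 in ADAR1 -/- cells against 45.4 to 66.6 in the controls and fell by 1.33 on the log2 scale (SE 0.15; adjusted p = 0.00878), and the other two differed by -0.56 and -0.25 (adjusted p = 0.578 and 0.884). The call of this dimmer probe set was kept without each array in turn and lost with quantile or cyclic loess normalization and with trend and robust variance, where adjusted p reached 0.212. Among NF-kappaB genes, also named after their values were seen, Rela differed by -0.55 ± 0.24 log2 units (adjusted p = 0.445) and Nfkb2 by 0.23 ± 0.51 (0.873), with 48.5 on ADAR1 -/- array 2 and 9.58 to 20.7 on the other 7. Nfkbia, likewise named after its values were seen, read 80.0, 145 and 8.43 in ADAR1 -/- cells and 12.6 to 88.7 in the controls by its brightest probe set. Its dimmer probe sets differed in direction. For instance, 1 read 55.2, 67.6 and 9.71 against 10.9 to 19.3 in the controls. Another read 20.0, 15.5 and 14.3 against 22.8 to 46.7. Transcript levels do not measure phosphorylation or nuclear entry of Irf3 or the NF-kappaB factors.

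**Figure D3:**
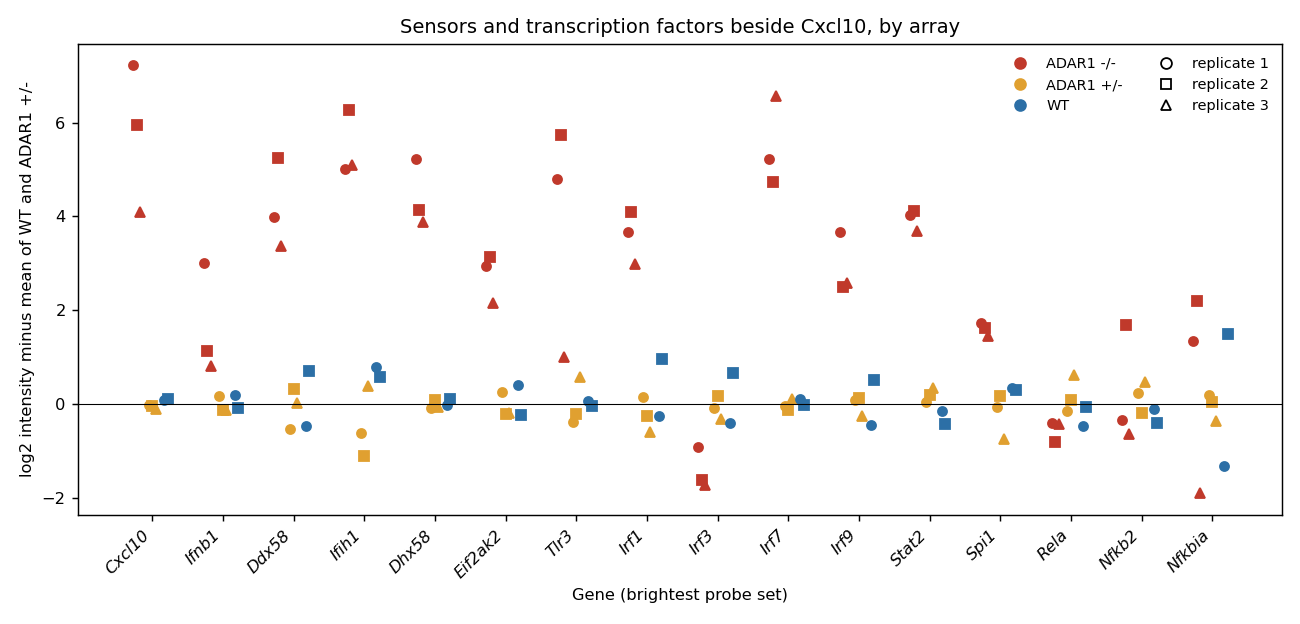
Log2 intensity minus the mean of the 5 control arrays (vertical axis) for Cxcl10, Ifnb1, sensors and transcription factors by their brightest probe set, with ADAR1 -/- left of ADAR1 +/- and WT and a marker shape for each replicate. Cxcl10 is highest on ADAR1 -/- array 1, Ifih1 and Tlr3 on array 2 and Irf7 on array 3, and the 3 ADAR1 -/- arrays of Irf3 lie below the 5 control arrays.

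Of 11 measured cytokines that can induce chemokine genes (without Il27), 0 passed limma in any comparison with ADAR1 -/- cells, and before adjustment 2 had a p under 0.05 as higher and 1 as lower against both controls together, beside 13.5% of all genes in either direction. Ifnb1, the interferon-beta gene, read 43.2, 11.8 and 9.51 in ADAR1 -/- cells, 6.11, 4.97 and 4.91 in ADAR1 +/- cells and 6.17 and 5.08 in WT cells. It was above background on all 3 ADAR1 -/- arrays and on none of the controls, and the groups do not overlap. The difference was 1.64 ± 0.45 log2 units, at least 2.42-fold, and did not pass (SE; limma, adjusted p = 0.234). Its ADAR1 -/- arrays had the same order as those of Cxcl10. Tnf, an activator of NF-kappaB, was lower by 0.37 ± 0.12 log2 units (adjusted p = 0.318). Il6 was at background on all 8 arrays and Csf2 on 6 of them, so that their differences of 0.35 and 0.25 log2 units (adjusted p = 0.424 and 0.670) are of readings mostly at background. Interferon-gamma, a known inducer of Cxcl9 and Cxcl10, was at background on every array, with 4.77 to 5.0 in ADAR1 -/- cells and 4.39 to 5.68 in the controls.

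The genes whose log2 values followed those of Cxcl10 most closely over the 8 arrays were named from 13097 genes above background on at least 2 arrays. They were the antiviral Ifit3 (Pearson r = 0.994), the nuclear body protein Sp100 (0.993), the oligoadenylate synthetase Oas3 (0.992), Dhx58 (0.989) and the guanylate-binding protein Gbp3 (0.988). These correlations describe 8 arrays that fall into a high and a low group and carry no p. Ifit3 read 2643, 1371 and 416 in ADAR1 -/- cells and 8.40 to 14.0 in the controls, and Oas3 read 543, 254 and 153 in ADAR1 -/- cells and 5.40 to 7.40 in the controls. By their brightest probe sets, all 5 genes were highest on array 1 and lowest on array 3 among the ADAR1 -/- arrays, the order of Cxcl10. Genes picked for a high r to Cxcl10 tend to share its order, so this is no separate result. The other Dhx58 probe sets had other orders on ADAR1 -/- arrays 1, 2 and 3, with 24.8, 224 and 52.4, and 6.72, 8.02 and 20.7. Irf1 (r = 0.956) was the 50th gene by this measure, Irf7 (0.910) the 124th and Ifnb1 (0.910) the 125th.

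The same measure for Ccl5 named Colec11, Mia, Pacsin1, Ifi204 and Card10, with r from 0.956 to 0.976. Ifi204, an interferon-inducible protein of the Ifi200 family, read 9.66, 38.3 and 6.60 in ADAR1 -/- cells and 4.15 to 6.01 in the controls. Each of the 5 was highest on ADAR1 -/- array 2, as was Ccl5, so the likeness rests to a large part on that single array.

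**Figure D4:**
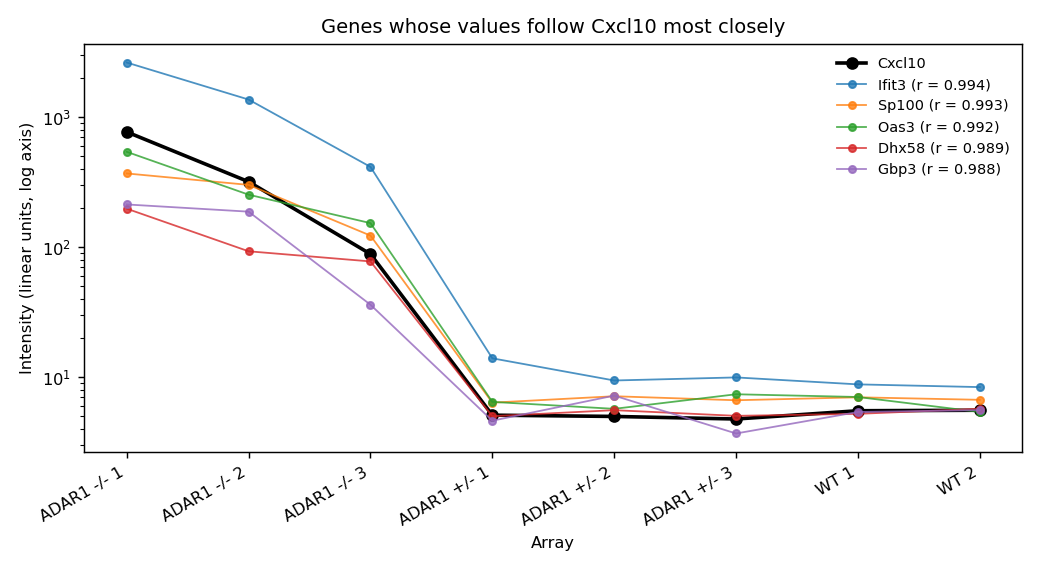
Intensity (linear units on a log axis) of Cxcl10 and of the 5 genes with the highest Pearson r to it over the 8 arrays, with the ADAR1 -/- arrays left of the ADAR1 +/- and WT arrays; each line joins the values of 1 gene and implies no order among mice. By the probe sets shown, all 6 genes are highest on ADAR1 -/- array 1 and lowest on array 3 of that group. All lie at or below 14.0 on the 5 control arrays.

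Markers of other cells in fetal liver were set beside these results, because chemokines are also made by macrophages, endothelial cells and lymphocytes. In bulk RNA, fewer cells of a type and less RNA per cell cannot be told apart. Of 13 measured macrophage markers, 1 was lower in ADAR1 -/- cells against both controls together, Lyz2, the macrophage lysozyme, with 27.6, 20.5 and 30.6 in ADAR1 -/- cells against 191, 165 and 75.3 in ADAR1 +/- cells and 151 and 214 in WT cells (-2.54 ± 0.34 log2 units, SE; limma, adjusted p = 0.0207). That call was lost without ADAR1 -/- array 1, ADAR1 +/- array 1 or 2, or WT array 1. The summed macrophage markers were 99.1 to 122 in ADAR1 -/- cells against 322 to 912 in the controls, and 8 of the 13 were at background on all ADAR1 -/- arrays. Before adjustment 5 of the 13 had a p under 0.05 as lower against both controls together and 0 as higher. Over all genes 13.5% had one in either direction in this comparison, and 0.934% passed after adjustment.

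Of 10 T and NK cell markers 0 passed by limma (0 with an unadjusted p under 0.05 against both controls together), with sums of 100 to 115 in ADAR1 -/- cells and 84.1 to 97.9 in the controls. Of these 10, 7 were at background on all ADAR1 -/- arrays and 3 on all control arrays. The sums include background, which was 7.40 to 9.29 on ADAR1 -/- arrays and 6.20 to 8.15 on control arrays. Of 9 endothelial and stromal markers 0 passed (1 higher before adjustment against both controls together), with sums of 195 to 284 in ADAR1 -/- cells and 120 to 198 in the controls. That 1 was Kdr, which read 97.5, 111 and 96.2 in ADAR1 -/- cells and 41.1 to 78.3 in the controls. Its difference was 0.86 ± 0.21 log2 units (SE, limma adjusted p = 0.171). Monocyte and neutrophil, B cell, dendritic cell, mast cell and megakaryocyte lists also had 0 members past the threshold in the comparisons with ADAR1 -/- cells; before adjustment the monocyte and neutrophil, B cell and megakaryocyte lists had 1 member each that was higher against both controls together, and the dendritic and mast cell lists 0. Hepatocyte markers summed to 57.8 to 75.3 in ADAR1 -/- cells against 197 to 1070 in the controls, with Afp lower by 5.11 ± 0.79 log2 units (SE; limma, adjusted p = 0.0403). Before adjustment 4 of the 7 measured hepatocyte markers had a p under 0.05 as lower against both controls together. Beside the counts of every list here, 13.5% of all genes had one in either direction in that comparison. After adjustment 0.934% of all genes passed against both controls together, 0.77% against ADAR1 +/- and 0.517% against WT. Apoa2, an apolipoprotein gene, differed by -3.32 ± 0.37 log2 units from ADAR1 +/- alone and passed as lower (SE; limma, adjusted p = 0.0223), a call lost without ADAR1 -/- array 1 or 3 or ADAR1 +/- array 1 or 3. The Afp call was lost without ADAR1 -/- array 2 or 3, any of the 3 ADAR1 +/- arrays, or WT array 2. Gata1, an erythroid factor, was higher against WT alone (1.24 ± 0.15 log2 units; adjusted p = 0.0355), a call lost without each of the 8 arrays in turn.

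Of 9 measured stem and progenitor markers 0 passed, and 1, Kit, had an unadjusted p under 0.05 as lower against both controls together. Over all genes 13.5% had one in either direction. The summed markers of this list were 158 to 963 in ADAR1 -/- cells against 470 to 742 in the controls. Gata2 read 345, 644 and 70.3 on ADAR1 -/- arrays 1, 2 and 3, against 306 to 432 in the controls. Meis1 read 45.1, 151 and 14.0 against 50.9 to 137, so both were lowest on array 3, as was Cxcl10. Slamf1, at 6.59, 103 and 9.61 against 8.86 to 235, was lowest on array 1. Kit, used in the sort, was above background on all 8 arrays, at 9.33 to 13.3 in ADAR1 -/- cells and 11.7 to 23.5 in the controls, and Ly6a, which encodes Sca-1, was not measured by a probe set of its own. The part of these marker differences in the Cxcl10 result was not tested.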

How the data were processed

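RNA of sorted fetal liver stem cells from 8 mice was amplified and biotin-labelled with a commercial kit and hybridised to Affymetrix arrays. The values in the file are intensity on a linear scale for each probe set, which the authors made with RMA, per the submitters' processing notes; its software version and the genome build were not stated there. Quantile-normalised RMA columns would have the same distribution, and these do not (array medians 7.06 to 7.91, upper quartiles 15.8 to 22.8), so how the arrays were scaled to each other is not known. RMA fits probes across arrays and compresses differences of dim probe sets. Groups came from the sample titles, and replicate numbers only name arrays.

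The deposited intensity was put on the log2 scale with no pseudocount and no filter. Of 45101 probe sets, 64 controls were left out and 45037 tested; 34945 named a single gene, 932 several and 9160 none, and 34741 were matched to RefSeq by gene number for names. Each gene's level is that of its probe set with the highest mean log2 value. A 3-group linear model and a 2-group model (ADAR1 -/- against both controls) were fitted with limma 3.58.1 on R 4.3.3 (lmFit, eBayes), two-sided, with Benjamini-Hochberg adjustment over all tested probe sets and a threshold of 0.05. A group is called at background if none of its arrays reads above the array's background, and "at least" folds set those readings to the higher of background and the reading. The p printed near such folds are of the differences without this floor. Error terms are limma standard errors for differences and SDs over mice for means. The method was tested on simulated data.

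Named were all member probe sets, list members past the threshold and up to 4 per list with the largest differences, and the 5 genes most like Cxcl10 and Ccl5. Members and lists were chosen with earlier results of these data known. Alternatives covered normalization, pseudocount, filters, array weights, variance model, probe set summary and leaving out each array; sex as a covariate and values floored at background were added after the data were seen. 0 per-sample columns were left unused.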

Additional observations from a re-analysis of the deposited data

How the results depend on the processing

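No paired analysis was possible because the replicate numbers were given in the order of deposit and pair no mice across groups. With a pseudocount of 32, which compresses low readings by construction, the Cxcl10 difference was 3.125 log2 units against both controls together (limma, adjusted p = 0.0976) and 3.134 against ADAR1 +/- (0.206), and 0 member probe sets passed in either; these calls were kept in 19 of 20 and 14 of 21 alternatives, the filters below among them. Against ADAR1 +/- the difference of 5.82 did not pass with arrays of these groups alone (0.0599, 0 members passing). Without each array it was 5.088 to 6.649 (0.00355 to 0.135, 0 or 1 members passing), and against both controls together 5.022 to 6.583. Against WT, 1 member, Cxcl10, passed with a filter above background (5.657, 0.0334), a filter above the median (5.657, 0.0252), trend and robust variance (5.657, 0.0261), the brightest probe set (5.657, 0.0402) or the mean of probe sets per gene (5.657, 0.0360). Cxcl10 clears both filters through its ADAR1 -/- arrays alone, so passing under a filter is no support for the difference. Without each array this difference was 4.925 to 6.485 (0.00588 to 0.157, 0 or 1 members passing), and over all 21 alternatives, 7 of which passed, adjusted p ran from 0.00588 to 0.418. The difference ADAR1 +/- minus WT passed in 0 of 21 (0.655 to 1.0). Among the dim members, 4 probe sets changed sign in differences that never passed. Against WT, the dimmer Cxcl9 probe set was -0.06, and 0.1205 with values floored at background; the mean of both Cxcl9 probe sets was 0.1175, a value of the gene and not of that probe set. Against WT, Ccl7 was -0.1847 to 0.3143 without each array, negative without WT array 1. Against ADAR1 +/-, Ccl3 was -0.004464 with quantile and -0.02738 with cyclic loess normalization, and Ccl4 was -0.01131 and -0.03255 with these and -0.006107 with median centring. The cause of these shifts was not tested. Readings at background set a limit that no alternative lifts: a low level of the 6 probe sets other than those of Cxcl10 and Ccl2 is not measured, and 2 WT arrays limit the comparison with WT.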
